A study of Mus musculus with 18 samples.

Results

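Preadipocytes from mice on a high-fat diet (HFD), left as mock, were compared directly with preadipocytes from mice on a control diet (CD) that had been given the cytokine TGF-b1. The comparison rests on 6 of the 18 libraries of the study, 3 in each group, chosen by their diet and treatment labels alone. All 6 came from primary preadipocytes, the fibroblast-like precursors of fat cells, of wild-type (WT) mice. The cells were taken from eWAT, the epididymal white fat depot. The 3 CD mock libraries, from cells with neither the diet nor the cytokine, are given beside both groups as the shared background. The groups compared differ in diet and in cytokine at once, so the part of each cannot be told apart in the direct comparison. The sources used here do not give the dose and duration of TGF-b1, the length of the diet, the age of the mice, or whether replicates were separate animals or cultures.

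TGF-b1 is secreted as a latent complex, and once freed it binds a type II receptor that activates a type I receptor kinase. That kinase phosphorylates Smad2 and Smad3, which enter the nucleus with Smad4 and act on target genes, among them inhibitors of the pathway itself. In fat precursors the pathway is known for holding back adipogenesis and for driving a myofibroblast state with contractile fibres and collagen. A high-fat diet is known to enlarge the epididymal depot, to recruit macrophages into it and to promote fibrosis there.

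Polyadenylated RNA was sequenced. Total counts per library ranged from 12698152 to 14729403 in HFD mock, from 12235288 to 16130926 with TGF-b1 and from 11154426 to 13846872 in CD mock. Levels are in CPM, which are counts divided by a library total that TMM scaling first adjusts by a factor for each library, and are given per library or as mean ± SD (n = 3). Folds and log2 differences are HFD mock against TGF-b1 unless another pair is named, with the standard error (SE) of the fit after the ± sign. Replicate libraries differed little more than counting noise alone would make them, the ratio of chi-square to degrees of freedom being 1.156 to 1.208 for pairs within HFD mock and within TGF-b1. Since their origin is not given, p-values describe the scatter of these libraries alone, and it may be technical. In such bulk samples, fewer cells of a type and less RNA per cell cannot be told apart. Reads of near-identical genes, such as the actin isoforms, the H2 genes or the Ly6 and Gbp families, could have been divided between them, and the strand setting of the counting is not stated.

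Most genes differed between diet and cytokine cells, the majority of them by little. With calls made at an adjusted p under 0.05 in edgeR's quasi-likelihood test and no minimum fold, 9083 of 14078 genes tested (64.5%) were called. Of all genes tested, 4462 (31.7%) were called higher in HFD mock and 4621 (32.8%) higher with TGF-b1. The counts of called list members given below stand against these shares. At a fold of at least 2, 1299 genes (9.23%) were called higher in HFD mock and 511 (3.63%) higher with TGF-b1, and at a fold of at least 8 the counts were 227 and 54. Large differences thus lay more often on the HFD side, while the median size of a called difference was 0.393 log2. Over all genes tested the root mean square difference was 0.794 log2 between HFD mock and TGF-b1, 0.659 between HFD mock and CD mock and 0.839 between TGF-b1 and CD mock. These distances share libraries and were not tested against each other.

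**Figure D1:**
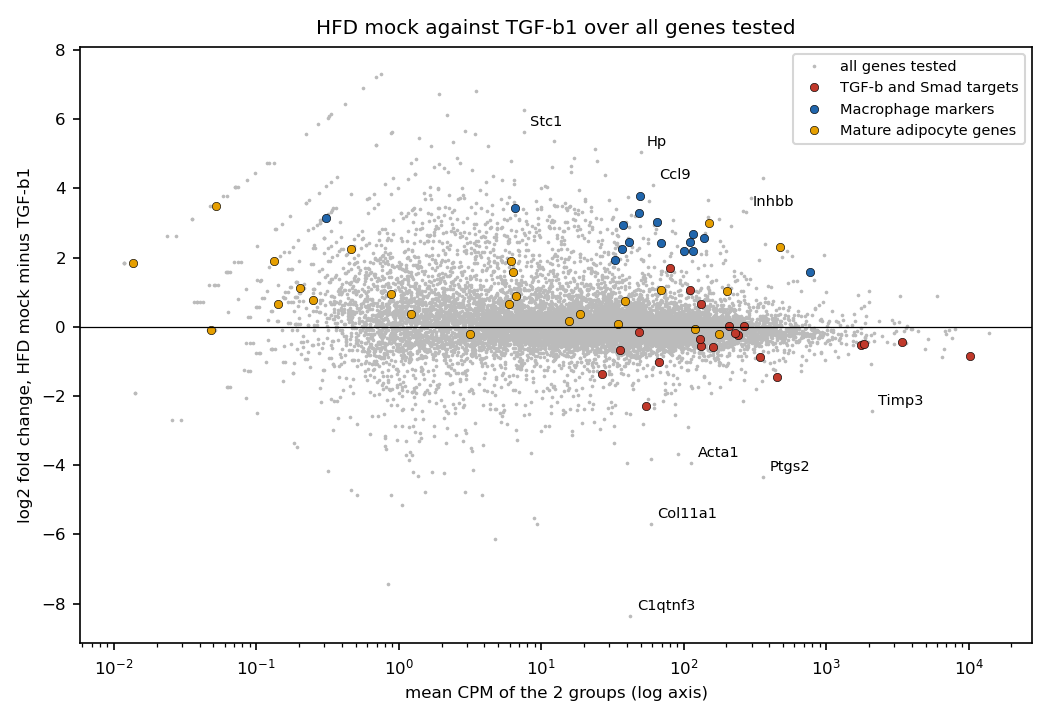
Log2 fold change of HFD mock minus TGF-b1 (vertical axis) against mean CPM (log axis), 1 point per gene tested. The tested macrophage markers all lie above 0, and C1qtnf3, at -8.36 log2, lies lowest.

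The libraries were first set against markers of preadipocytes and of other cells of the depot. Col1a1, a collagen I chain, was the most abundant gene by counts in all 9 libraries. Of 12 preadipocyte and fibroblast markers tested, 9 were called higher in HFD mock and 3 higher with TGF-b1. Ly6a, the Sca-1 surface protein of mesenchymal progenitors, stood at 57.33, 53.52 and 56.13 CPM in HFD mock and at 5.117, 3.724 and 4.315 with TGF-b1, beside 81.65 ± 4.33 in CD mock. Its TGF-b1 libraries lay far below all the others. Lum, which encodes the proteoglycan lumican, was 4.81-fold higher in HFD mock, while the intermediate filament gene Vim was 1.37-fold higher with TGF-b1. Adipoq, the adiponectin gene of mature fat cells, was near the limit of detection in both groups. It had 12 counts over the HFD mock libraries and 5 over the TGF-b1 libraries. The CD mock libraries held 147 counts, at 3.994 ± 0.668 CPM, above both groups. Between HFD mock and TGF-b1, Adipoq was not called (edgeR adjusted p = 0.173). Without the third TGF-b1 library it was called, at 2.52 log2 (edgeR adjusted p = 0.0338).

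Macrophage markers were higher in the diet cells without exception. All 16 tested were called higher in HFD mock, each by at least 2-fold, with a median of 2.510 log2 against -0.0024 over all genes tested. Their summed level was 2810.4 to 2844.8 CPM in the HFD mock libraries, 661.6 to 679.8 with TGF-b1 and 596.7 to 609.2 in CD mock. Fcgr1, a high-affinity Fc receptor, was 10.8-fold higher in HFD mock. The mannose receptor gene Mrc1 (chr2:14229414-14332024, genome build mm10) stood at 95.25, 94.46 and 86.66 CPM in HFD mock, at 7.419, 5.941 and 6.81 with TGF-b1 and at 27.86, 28.87 and 28.7 in CD mock. The groups did not overlap, with HFD mock above CD mock and TGF-b1 below it, 13.6-fold apart (3.77 ± 0.096 log2). Adgre1, the F4/80 antigen, named here after its values were seen, was at 116.2 ± 1.12 CPM in HFD mock, 14.04 ± 1.75 with TGF-b1 and 16.03 ± 1.03 in CD mock. Of the tested macrophage markers, Cd163, a scavenger receptor named after its values were seen, was at 0 in some libraries, with 0.4268, 0.8171 and 0.4231 CPM in HFD mock and 0, 0.1773 and 0 with TGF-b1, and no other was.

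Mesothelial, endothelial and pericyte markers were called on both sides within each list, and single genes among them were far apart. Mesothelial markers summed to 689.2 to 703.7 CPM in HFD mock and 734.3 to 753.2 with TGF-b1, both far below the 2639.8 to 2674.7 of CD mock. Of 11, 4 were higher in HFD mock and 6 higher with TGF-b1. Msln, the mesothelin gene, was 3.76-fold higher with TGF-b1, at 32 CPM in HFD mock, 120.2 with TGF-b1 and 120.6 in CD mock. The mucin gene Muc16 was 6-fold higher in HFD mock, at 16.8 CPM against 2.817 with TGF-b1, both below the 52.75 of CD mock. Endothelial markers summed to 187.8 to 196 CPM in HFD mock, 250.5 to 253.3 with TGF-b1 and 462.9 to 483.1 in CD mock, with 4 of 10 higher in HFD mock and 3 higher with TGF-b1. Kdr, a receptor for vascular endothelial growth factors, was 4.68-fold higher with TGF-b1, and Vwf, the gene of the von Willebrand factor, 2.48-fold higher in HFD mock. Pericyte and smooth muscle markers summed to 560.6 to 577.8 CPM in HFD mock, 707.9 to 710.4 with TGF-b1 and 582.8 to 597.8 in CD mock. The summed levels of these 3 lists were lower in HFD mock than with TGF-b1, with no overlap between libraries. Each sum leaned on a single gene, namely Msln, Cspg4 or Kdr, the last at 21.96 CPM in HFD mock and 102.8 with TGF-b1. Median log2 differences were -0.376 for mesothelial, 0.042 for endothelial and -0.067 for pericyte and smooth muscle markers, so the sums do not describe the lists as a whole. Of 9 markers of pericytes and smooth muscle, 3 were higher in HFD mock and 3 higher with TGF-b1. Cspg4, the NG2 proteoglycan of pericytes, was at 25.61 ± 1.66 CPM in HFD mock, 189.5 ± 3.53 with TGF-b1 and 27.65 ± 2.33 in CD mock. Ncam1, a neural and mesenchymal adhesion molecule, was 4.42-fold higher with TGF-b1. None of the 9 lymphocyte markers was tested: 8 have no row in the table used here, and Cd4, a marker of helper T cells, did not pass the filter, with 2 counts over the HFD mock libraries and 3 over the TGF-b1 libraries.

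**Figure D2:**
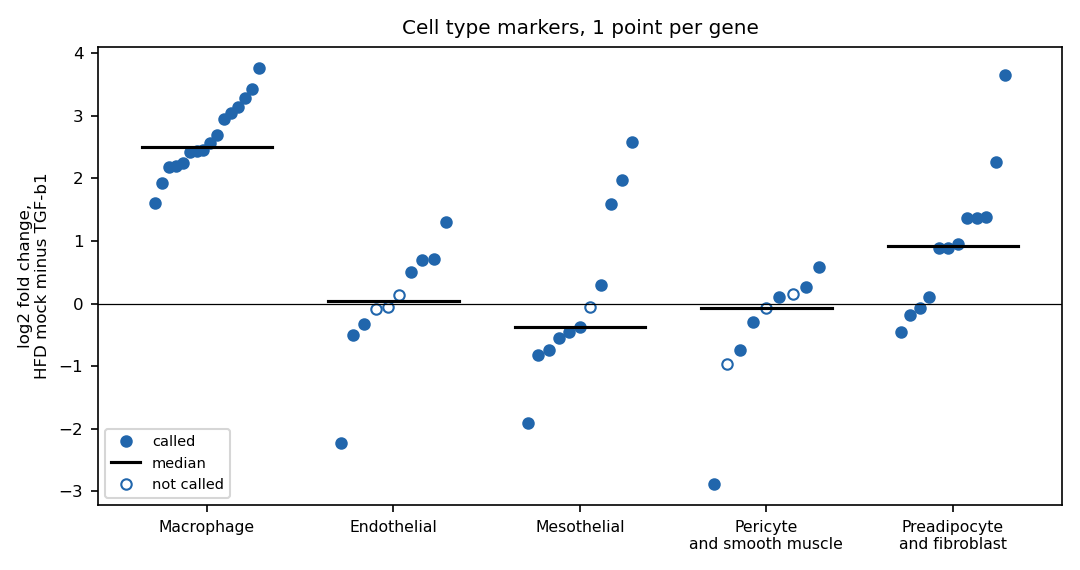
Log2 fold change of HFD mock minus TGF-b1 for the tested markers of several cell types, 1 point per gene. The macrophage markers all lie above 0, with a median of 2.510, while endothelial, mesothelial and pericyte markers lie on both sides of 0.

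Smad target genes were for the most part higher with the cytokine than after the diet. Of 21 tested, 16 were called higher with TGF-b1 and 3 higher in HFD mock, or 15 and 5 with scaling by library totals, with a median of -0.485 log2. Ccn2, a secreted matricellular protein, stood at 2889.2, 2922.1 and 2908.0 CPM in HFD mock, at 3978.3, 3971.8 and 3959.0 with TGF-b1 and at 1183.3, 1179.7 and 1174.4 in CD mock. The TGF-b1 libraries were all above the HFD mock libraries, by 1.37-fold (-0.45 ± 0.0084 log2), and these all above CD mock. Smad7, the inhibitory Smad induced by the pathway, was 1.27-fold higher with TGF-b1 than in HFD mock.

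The distance between cytokine and diet differed from target to target. Nox4, an oxidase that makes hydrogen peroxide in myofibroblasts, was at 20.63, 17.49 and 16.99 CPM in HFD mock and at 94.15, 89.73 and 87.85 with TGF-b1, 4.91-fold higher with the cytokine (-2.30 ± 0.064 log2, edgeR adjusted p = 2.24e-33). In CD mock it was at 15.82 ± 0.152 CPM, close to HFD mock. Pmepa1, a feedback inhibitor of Smad signalling, was 2.72-fold higher with TGF-b1. The opposite order held for Tgfbi, a matrix protein named for its induction by TGF-b. It was at 122, 124.6 and 122.5 CPM in HFD mock, at 39.31, 36.89 and 36.88 with TGF-b1 and at 20.74, 19.95 and 22.7 in CD mock. Both groups were above CD mock, the diet libraries most. Macrophage markers were higher in HFD mock too, and their part in the Tgfbi values was not tested. Smad6, an inhibitory Smad of the BMP branch, was 2.07-fold higher in HFD mock.

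Ligands, receptors and activators of the pathway showed no common direction. Of 24, 9 were called higher in HFD mock and 11 higher with TGF-b1, and the median of -0.026 log2 turned to 0.039 with scaling by library totals. Tgfb1 itself was at 130.5, 129.3 and 125.7 CPM in HFD mock and at 198.3, 209.1 and 198.6 with TGF-b1, 1.57-fold apart (-0.65 ± 0.028 log2, edgeR adjusted p = 9.37e-24). Ltbp1, which tethers latent TGF-b to the matrix, was 4.44-fold higher with TGF-b1. Tgfbr3, the co-receptor betaglycan, was 3.42-fold higher in HFD mock. Tgfbr2, the type II receptor, was not called (edgeR adjusted p = 0.683), at 237.5 ± 2.58 CPM in HFD mock and 239 ± 5.74 with TGF-b1.

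The activin subunits, ligands of the same receptor family, went in opposite directions. Inhba (chr13:16011851-16031610), the activin A subunit, was at 419, 416.9 and 424.9 CPM in HFD mock, at 908.1, 909.8 and 905.1 with TGF-b1 and at 129.5, 127.4 and 123 in CD mock. Both groups were above CD mock, the TGF-b1 libraries most. Inhbb (chr1:119415463-119422249), the activin B subunit, was at 500.5, 495.1 and 498.4 CPM in HFD mock, at 49.29, 49.12 and 50.97 with TGF-b1 and at 339.9, 339.9 and 339.8 in CD mock. Here HFD mock was above CD mock and TGF-b1 below it, 9.98-fold (3.32 ± 0.031 log2) apart.

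**Figure D3:**
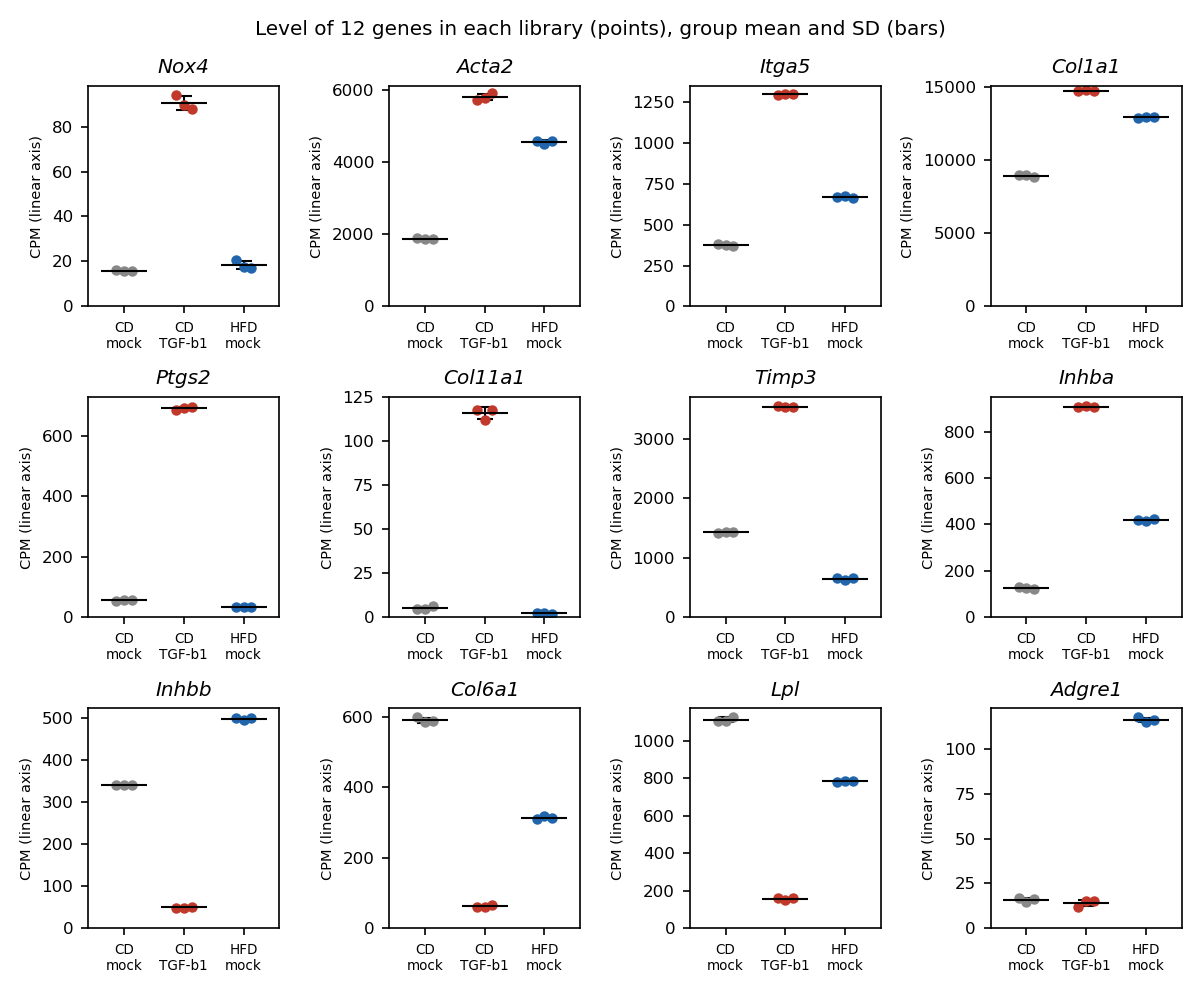
CPM of 12 genes in each CD mock, TGF-b1 and HFD mock library, with a point per library and the mean and SD of each group. Itga5 and Inhba run upward from CD mock through HFD mock to TGF-b1, while Inhbb is highest in HFD mock and lowest with TGF-b1.

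By their median, contractile genes lay above CD mock in both groups, and the groups stood close to each other. The median of the 23 members tested was 0.672 log2 for HFD mock minus CD mock and 0.931 for TGF-b1 minus CD mock, 2 values that share the CD mock libraries. Directly compared, 14 were called higher with TGF-b1 and 7 higher in HFD mock, or 12 and 10 with scaling by library totals, with a median of -0.141. Acta2, the smooth muscle actin that marks myofibroblasts, was at 4607.3, 4519.4 and 4602.4 CPM in HFD mock, at 5747.4, 5781.6 and 5922.3 with TGF-b1 and at 1889.8, 1871.8 and 1876.3 in CD mock. Its libraries did not overlap, though diet and cytokine were only 1.27-fold (-0.35 ± 0.0085 log2) apart.

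Single members lay far from that median. Acta1, the skeletal muscle actin, was at 14.37, 12.09 and 14.81 CPM in HFD mock, at 214.7, 211.1 and 212.2 with TGF-b1 and at 5.009, 3.043 and 4.455 in CD mock, 15.4-fold (-3.94 ± 0.068 log2) higher with the cytokine than after the diet. Tpm1, a tropomyosin that stabilises actin filaments, was 2.09-fold higher with TGF-b1. Mylk, the kinase that phosphorylates myosin light chain, was at 897.9, 897.7 and 892.1 CPM in HFD mock, at 349.1, 359.6 and 355 with TGF-b1 and at 434.4, 444.6 and 435.1 in CD mock. Its HFD mock libraries were all above CD mock and its TGF-b1 libraries all below, 2.53-fold (1.34 ± 0.015 log2) apart. Lmod1, a smooth muscle actin nucleator, was 1.43-fold higher in HFD mock.

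The promoters of 3 of these genes are shown because the genes moved in both directions while their windows hold elements of known contractile regulators. Each is the 250 bases before the RefSeq start site on GRCm38.p6. Capitals mark a CArG box, the element of the serum response factor, or the TEAD site CATTCC, on either strand. Acta1 (chr8:123894776-123895025, minus strand) and Tpm1 (chr9:67049214-67049463, minus strand) were higher with TGF-b1, and Mylk (chr16:34784700-34784949, plus strand) was higher in HFD mock.
Acta1: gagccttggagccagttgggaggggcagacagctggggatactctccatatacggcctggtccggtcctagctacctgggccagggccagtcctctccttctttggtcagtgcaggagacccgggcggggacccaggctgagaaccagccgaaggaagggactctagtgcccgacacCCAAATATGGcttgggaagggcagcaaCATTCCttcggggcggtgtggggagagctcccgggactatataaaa
Tpm1: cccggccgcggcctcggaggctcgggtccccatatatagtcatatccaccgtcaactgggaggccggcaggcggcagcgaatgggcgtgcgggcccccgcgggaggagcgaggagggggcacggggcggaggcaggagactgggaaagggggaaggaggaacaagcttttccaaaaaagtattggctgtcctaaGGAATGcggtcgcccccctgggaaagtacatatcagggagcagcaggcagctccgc
Mylk: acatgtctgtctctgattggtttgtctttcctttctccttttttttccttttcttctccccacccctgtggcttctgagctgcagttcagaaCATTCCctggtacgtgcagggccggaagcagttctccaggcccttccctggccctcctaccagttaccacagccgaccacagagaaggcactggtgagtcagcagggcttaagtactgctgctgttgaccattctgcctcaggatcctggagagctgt
Acta1 held a CArG box and a TEAD site, and Tpm1 and Mylk each held a TEAD site without a CArG box. Of the 20 contractile genes with a promoter in the RefSeq table, 9 (45%) held CATTCC and 4 (20%) a CArG box, against 12.6% and 1.47% of all 32851 windows of this length. The Smad-binding letters CAGAC stood in 8 (40%), against 42.2% of all windows. A match describes letters and not binding, and no match says only that the letters are not in this window.

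Matrix genes went both ways. Of 28 fibrillar collagens and matrix proteins, 17 were called higher in HFD mock and 11 higher with TGF-b1, with a median of 0.454 log2. Col1a1 was 1.14-fold (-0.19 ± 0.0061 log2) higher with TGF-b1, at 12954.7 ± 37.2 CPM in HFD mock, 14768.8 ± 22.8 with TGF-b1 and 8930.1 ± 58.2 in CD mock. Col11a1 (chr3:114030540-114220757), a minor fibrillar collagen of cartilage, was at 2.276, 2.533 and 1.904 CPM in HFD mock, at 117.9, 112.3 and 118 with TGF-b1 and at 4.57, 4.953 and 6.254 in CD mock. Its TGF-b1 libraries stood apart from all others, 52-fold above HFD mock (-5.70 ± 0.15 log2). Cilp, a cartilage matrix protein, was 5.63-fold higher with TGF-b1.

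Collagen VI, a microfibrillar collagen of fat tissue, lay on the other side. Col6a1 was at 309.5, 317.5 and 313.7 CPM in HFD mock, at 61.91, 60.29 and 64.86 with TGF-b1 and at 598.6, 584.5 and 587.3 in CD mock. The diet libraries lay below CD mock and the cytokine libraries lower still, 5.01-fold below HFD mock (2.32 ± 0.029 log2). Col6a2 was 4.52-fold higher in HFD mock. Col6a3 and Fn1, the fibronectin gene, both named after their values were seen, were 2.03-fold and 1.85-fold higher in HFD mock.

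Basement membrane genes and proteoglycans were also divided. Of 19 basement membrane genes, 12 were higher in HFD mock and 7 higher with TGF-b1. Nid2, which links laminin to collagen IV, was at 876.8 ± 2.32 CPM in HFD mock, 192.1 ± 5.68 with TGF-b1 and 1110.0 ± 10.1 in CD mock. Lama5, a laminin chain, was 3.34-fold higher in HFD mock, and Col4a6, a collagen IV chain, 1.62-fold higher with TGF-b1. Of 11 small leucine-rich proteoglycans, which coat collagen fibrils, 6 were higher in HFD mock and 3 higher with TGF-b1. Prelp was 5.55-fold higher in HFD mock and Aspn, the asporin gene, 4.53-fold higher with TGF-b1.

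Enzymes and inhibitors that shape the matrix showed sharp contrasts. Of 25 proteases and inhibitors, 15 were higher in HFD mock and 9 higher with TGF-b1. Timp3 (chr10:86300412-86349506), a metalloprotease inhibitor bound to the matrix, was at 665.7, 626.8 and 653.8 CPM in HFD mock, at 3554.7, 3525.9 and 3541.3 with TGF-b1 and at 1420.7, 1425.8 and 1434.9 in CD mock. Diet and cytokine thus lay on either side of CD mock, 5.45-fold (-2.45 ± 0.012 log2) apart. Mmp9, a gelatinase, had 10 counts over the HFD mock libraries and was at 7.388 ± 0.383 CPM with TGF-b1. Mmp3, stromelysin 1, and Adamts9, a proteoglycanase, were 5.72-fold and 3.84-fold higher in HFD mock.

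Collagen processing and crosslinking genes showed no common direction, with 10 of 26 higher in HFD mock and 11 higher with TGF-b1. Their median of -0.031 log2 turned to 0.033 with scaling by library totals. Loxl3, a lysyl oxidase that crosslinks collagen, was 2.38-fold higher with TGF-b1. Tgm2, a crosslinking transglutaminase, was 2.06-fold higher there too. Adamts2, which trims procollagen, was at 785.9 ± 6.54 CPM in HFD mock and 193.2 ± 6.12 with TGF-b1.

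Adhesion genes were more often higher with the cytokine. Of 26 integrin and focal adhesion genes, 15 were called higher with TGF-b1 and 9 higher in HFD mock, with a median of -0.259 log2. The shares over all genes tested were 32.8% and 31.7%, in the same order. Itga5 (chr15:103344286-103366792), the alpha subunit of the fibronectin receptor, was at 673.4, 674.5 and 661.7 CPM in HFD mock, at 1293.5, 1302.5 and 1302.0 with TGF-b1 and at 382.6, 376.1 and 369.4 in CD mock. Diet libraries lay between control and cytokine, 1.94-fold below the latter (-0.96 ± 0.013 log2). Itga4, a subunit of leukocyte and other integrins, was 10.7-fold higher in HFD mock, where macrophage markers were higher too, and their part in it was not tested. Itgb8, which activates latent TGF-b, was 11-fold (3.46 ± 0.34 log2) higher in HFD mock, at 5.942 ± 0.251 CPM against 0.5385 ± 0.199, with 18.72 ± 1.24 in CD mock. Of 16 YAP and TAZ targets, 9 were higher with TGF-b1 and 6 higher in HFD mock. Ajuba, a LIM protein, was 2.4-fold higher with TGF-b1 and F3, tissue factor, 1.37-fold higher in HFD mock.

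Regulators of adipogenesis were mostly higher after the diet than with the cytokine. Of 21, 14 were called higher in HFD mock and 5 higher with TGF-b1, with a median of 0.528 log2. Pparg, the central regulator of fat cell differentiation, was at 31.08, 29.17 and 31.03 CPM in HFD mock, at 13.99, 13.74 and 12.34 with TGF-b1 and at 27.07, 25.83 and 25.02 in CD mock. The TGF-b1 libraries lay below both others, and HFD mock exceeded them 2.3-fold (1.20 ± 0.077 log2, edgeR adjusted p = 2.01e-19). Cebpa, its partner in differentiation, was at 180.1 ± 4.91 CPM in HFD mock, 47.81 ± 1.38 with TGF-b1 and 133.2 ± 5.39 in CD mock. Ebf1, an early factor of the lineage, was 2.55-fold higher in HFD mock. Gata3, which restrains differentiation, was 2.85-fold higher with TGF-b1.

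Genes of mature fat cells were more often higher in the diet cells, and many were not called. Of 25 tested, 12 were higher in HFD mock, 2 higher with TGF-b1 (1 with scaling by library totals, or without HFD mock library 1 or 2 or TGF-b1 library 2) and 11 not called. Lpl, the lipoprotein lipase, was at 782, 785.8 and 787.5 CPM in HFD mock, at 159.9, 153.4 and 161.1 with TGF-b1 and at 1103.1, 1106.2 and 1126.3 in CD mock. Both groups were below CD mock, the cytokine libraries most, and HFD mock exceeded them 4.96-fold (2.31 ± 0.018 log2). Cd36 (chr5:17781690-17888960), a fatty acid transporter, was at 261.8, 273.3 and 264.2 CPM in HFD mock, at 34.62, 32.19 and 33.04 with TGF-b1 and at 139.3, 147.5 and 140.2 in CD mock. For this gene HFD mock was above CD mock, and 8-fold above TGF-b1. Macrophages also express Lpl and Cd36, their markers were higher in HFD mock, and their part in these values was not tested.

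Lipid metabolism showed no common direction. Of 18 fatty acid synthesis genes 8 were higher in HFD mock and 6 higher with TGF-b1. Acsl1, an acyl-CoA synthetase, was 2.32-fold higher in HFD mock and Fasn, fatty acid synthase, 1.37-fold higher with TGF-b1. Of 21 fatty acid oxidation genes, 12 were not called. Pdk4, a kinase that turns glucose oxidation down, was 2.03-fold higher in HFD mock. Of 24 cholesterol genes, 9 were higher in HFD mock and 8 higher with TGF-b1.

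Immune lists lay mostly on the diet side. The macrophage markers, with summed levels of 2810.4 to 2844.8 CPM in HFD mock and 661.6 to 679.8 with TGF-b1, were higher there too. Against CD mock, which these medians share, macrophage markers had medians of 2.332 log2 for HFD mock and -0.057 for TGF-b1. In the same order, the complement list gave -0.654 and -1.224, chemokines -0.148 and -1.046, and interferon response genes -0.310 and -0.755. Genes of antigen presentation gave 0.169 and -0.775, and inflammatory genes -0.313 and -0.337. The part of macrophages in the immune lists was not tested. Members of the complement list were called higher in HFD mock in 16 of 19, with a median of 1.450 log2, and 2 of them are also macrophage markers. The list also holds the C1q and TNF related genes C1qtnf1, C1qtnf2, C1qtnf3 and C1qtnf6. The 2 members called higher with TGF-b1 were C1qtnf2 and C1qtnf3. C5ar1, the receptor of the C5a fragment, was at 105.6, 105.5 and 104.6 CPM in HFD mock, at 8.102, 7.714 and 9.372 with TGF-b1 and at 15.91, 16.27 and 16.96 in CD mock. C3, the central complement protein, named after its values were seen, was at 216.5 ± 4.86 CPM in HFD mock, 50.02 ± 6.34 with TGF-b1 and 693.7 ± 11.3 in CD mock. The diet cells thus stood above CD mock for C5ar1 and below it for C3. On the other side of the list stood C1qtnf3 (chr15:10952332-10980163), a secreted protein with a C1q domain known as cartonectin. It was at 0.1423, 0.3268 and 0.2821 CPM in HFD mock, with 10 counts in all, at 85.02, 84.06 and 84.41 with TGF-b1 and at 0.791, 1.061 and 0.5997 in CD mock. The difference was 329-fold (-8.36 ± 0.44 log2, edgeR adjusted p = 1.36e-41), and rests on those few counts in HFD mock.

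Chemokines were called higher in HFD mock in 13 of 17, with a median of 1.393 log2. Ccl9 was at 114.7 ± 1.19 CPM in HFD mock, 6.68 ± 0.581 with TGF-b1 and 48.89 ± 1.9 in CD mock. Cxcl5, which draws neutrophils, was at 8.228 ± 1.14 CPM in HFD mock and had 8 counts over the TGF-b1 libraries. Cx3cl1, a membrane-bound chemokine, was 1.71-fold higher with TGF-b1.

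Inflammatory cytokines and NF-kB targets went both ways, with 11 of 22 higher in HFD mock and 8 higher with TGF-b1. Ptgs2 (chr1:150100031-150108235), the inducible cyclooxygenase that makes prostaglandins, was at 33.93, 32.93 and 34.62 CPM in HFD mock, at 684.7, 691.4 and 694 with TGF-b1 and at 55.54, 57.38 and 58.85 in CD mock. It was 20.4-fold (-4.35 ± 0.038 log2) higher with the cytokine, and the diet libraries lay below CD mock. Lif, a cytokine of the interleukin 6 family, was 3.36-fold higher with TGF-b1. Hp (chr8:109575128-109579173), the haptoglobin gene of the acute phase, was at 97.31, 96.99 and 96.68 CPM in HFD mock, at 2.9, 2.749 and 3.034 with TGF-b1 and at 200, 194.9 and 206.4 in CD mock. Saa3, another acute phase gene, was 10.5-fold higher in HFD mock, and for both genes the 2 groups were below CD mock.

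Antigen presentation was uniform. All 17 tested genes of major histocompatibility complex (MHC) presentation were called higher in HFD mock, 8 of them by at least 2-fold, with a median of 0.958 log2. Psmb8, an immunoproteasome subunit, was at 22.98, 25.17 and 25.53 CPM in HFD mock, at 3.496, 4.345 and 4.922 with TGF-b1 and at 17.05, 14.79 and 17.99 in CD mock. Nlrc5, the activator of MHC class I genes, was 4.48-fold higher in HFD mock. Interferon response genes were called higher in HFD mock in 18 of 30 and higher with TGF-b1 in 4 (2 with scaling by library totals, or without HFD mock library 1 or 3 or TGF-b1 library 1 or 2), with a median of 0.364. Oasl2, an antiviral protein gene, was at 18.8 ± 0.232 CPM in HFD mock, 8.231 ± 0.134 with TGF-b1 and 47.71 ± 3.06 in CD mock. Gbp3, a guanylate-binding protein gene, was 2.1-fold higher in HFD mock, but was not called when only its highest transcript was counted (log2 fold change 0.79, edgeR adjusted p = 0.258).

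Interferon acts on many of its targets through a response element, the ISRE, searched here as GAAANNGAAA on either strand. The windows of Gbp3 (chr3:142559794-142560043, plus strand) and Oasl2 (chr5:114896684-114896933, plus strand) are shown because both genes were higher in HFD mock and only the first holds these letters, printed in capitals.
Gbp3: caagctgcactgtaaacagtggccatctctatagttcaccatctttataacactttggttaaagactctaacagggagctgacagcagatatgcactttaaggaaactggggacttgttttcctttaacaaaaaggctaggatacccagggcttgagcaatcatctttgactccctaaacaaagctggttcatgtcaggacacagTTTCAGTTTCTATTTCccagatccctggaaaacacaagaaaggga
Oasl2: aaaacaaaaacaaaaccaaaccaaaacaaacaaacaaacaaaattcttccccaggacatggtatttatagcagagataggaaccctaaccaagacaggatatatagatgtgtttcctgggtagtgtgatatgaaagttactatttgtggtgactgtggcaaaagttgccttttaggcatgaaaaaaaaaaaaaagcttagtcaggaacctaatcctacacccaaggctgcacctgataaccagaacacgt
The capitals in Gbp3 cover 2 overlapping matches. Of 24 interferon response genes with a promoter in the table, 12 (50%) held the element, against 2.98% of all windows.

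Genes of the Wnt pathway, a list of secreted ligands and antagonists, receptors and intracellular members, went both ways. Of 23 genes, 11 were called higher in HFD mock and 11 higher with TGF-b1. The ligand Wnt2 was at 2.845, 2.86 and 2.609 CPM in HFD mock and at 19.44, 20.66 and 20.09 with TGF-b1, and the ligand Wnt9a was 6.82-fold higher with TGF-b1. The secreted antagonists Sfrp2 and Frzb lay on the other side. Sfrp2 was at 30.94, 31.13 and 30.96 CPM in HFD mock, at 1.45, 0.8867 and 1.348 with TGF-b1 and at 82.35, 91.7 and 82.75 in CD mock, and Frzb was 12.5-fold higher in HFD mock. Of 21 BMP genes, 8 were higher in HFD mock and 6 higher with TGF-b1. The ligand Gdf6 was 2.48-fold higher with TGF-b1, and Id4, an inhibitor of basic helix-loop-helix factors, 3.9-fold higher in HFD mock.

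Growth factors split gene by gene. Of 25 angiogenic and mitogenic factors, 14 were higher with TGF-b1 and 11 higher in HFD mock, with a median of -0.384 log2. Hbegf, a ligand of the epidermal growth factor receptor, was at 13.52, 11.85 and 12.9 CPM in HFD mock, at 86.05, 98.51 and 86.64 with TGF-b1 and at 14.5, 12.88 and 13.88 in CD mock. Its TGF-b1 libraries stood above all others. Nrg1, a neuregulin, was 4.55-fold higher with TGF-b1. Vegfd, a lymphatic growth factor, was at 320.1 ± 9.16 CPM in HFD mock, 36.75 ± 2.86 with TGF-b1 and 422.8 ± 7.99 in CD mock. Angptl7, an angiopoietin-like protein, was 41-fold higher in HFD mock, with 22 counts over the TGF-b1 libraries. Among insulin-like growth factor genes, 7 of 13 were higher in HFD mock and 4 higher with TGF-b1. Igfbp4, which binds these factors, was 4.16-fold higher in HFD mock, while Pappa, the protease that cleaves it, was at 47.89 ± 0.767 CPM in HFD mock, 133.3 ± 3.79 with TGF-b1 and 15.91 ± 0.871 in CD mock.

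Proliferation genes were modestly higher after the diet. Of 26 cell cycle genes, 20 were called higher in HFD mock and 3 higher with TGF-b1, with a median of 0.215 log2 and 0 of them at a fold of at least 2 on the HFD side. Mki67, the Ki-67 proliferation antigen, was at 352.5, 345.6 and 342.8 CPM in HFD mock, at 214.1, 221.8 and 228 with TGF-b1 and at 293.8, 287.1 and 281.7 in CD mock. Ccnd1, cyclin D1, stood further apart, at 111.7, 107.5 and 107.8 CPM in HFD mock, 18.16, 17.65 and 15.04 with TGF-b1 and 52.55, 48.04 and 49.6 in CD mock. For both genes CD mock lay between the groups. Mdm2, the ubiquitin ligase of p53, was 1.53-fold higher with TGF-b1.

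Lists of energy metabolism and translation were higher with TGF-b1 by small steps. Of 30 oxidative phosphorylation genes, 27 were called higher with TGF-b1 and 0 higher in HFD mock, with a median of -0.261 log2, or 24 and 1 with scaling by library totals. Cycs, cytochrome c, was 1.48-fold higher with TGF-b1. Of 25 ribosomal protein genes, 23 were higher with TGF-b1 and 0 higher in HFD mock, with a median of -0.208, and Rpl4 was 1.26-fold apart. The ribosomal RNA precursor Rn45s took 0.443 to 0.445% of counts in HFD mock, 0.782 to 0.785% with TGF-b1 and 0.487 to 0.489% in CD mock, and its part in these lists was not tested. Of 24 genes of ER stress and amino acid synthesis, 16 were higher with TGF-b1 and 6 higher in HFD mock. Phgdh, the first enzyme of serine synthesis, was 1.51-fold higher with TGF-b1, and Atf3, a stress-induced factor, 5.28-fold higher in HFD mock. Of 23 glycolysis and hypoxia genes, 13 were higher with TGF-b1 and 8 higher in HFD mock. Hk2, a hexokinase, was 1.76-fold higher with TGF-b1 and Adm, the vasodilator adrenomedullin, 5.04-fold higher in HFD mock.

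Lysosomal genes were called higher in HFD mock in 16 of 22 and higher with TGF-b1 in 3, with a median of 0.422 log2. Ctss, a cathepsin of antigen-presenting cells, was at 339.7, 338.9 and 340 CPM in HFD mock, at 114, 103.7 and 112.4 with TGF-b1 and at 92.54, 92.62 and 98.09 in CD mock. Abcg1, a cholesterol exporter, was 3.93-fold higher in HFD mock. Against CD mock, the medians of this list were 0.199 log2 for HFD mock and -0.251 for TGF-b1. Macrophage markers were higher in HFD mock too, and their part in this list was not tested.

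Most of the remaining lists had members on both sides. Among progenitor markers of fat stroma, 11 of 20 tested were called higher in HFD mock and 9 higher with TGF-b1. Ly6c1, a relative of Ly6a, was 15.4-fold higher in HFD mock and Cd24a, a marker of early progenitors, 6.68-fold higher with TGF-b1. For antioxidant and detoxification genes, 13 of 24 tested were called higher in HFD mock and 8 higher with TGF-b1. Gstt1, a glutathione transferase, was 4.74-fold higher in HFD mock and Nqo1, a quinone reductase induced by NRF2, 2.01-fold higher with TGF-b1. In the list of D cyclins, CDK inhibitors and p53 targets, 9 of 14 tested were called higher in HFD mock and 5 higher with TGF-b1. Of the thermogenic list, 7 of 16 tested were called higher in HFD mock and 3 higher with TGF-b1, and 6 were not called. With at least 5 CPM in 3 libraries required, the 7 became 3. Ucp1, Cox7a1, Cox8b and Elovl3 were not tested. The summed level of this list was 516.2 CPM in HFD mock and 572.1 with TGF-b1. Few markers of nerve, epithelium and mast cells could be tested. Of 4 neural markers, 1 was higher in HFD mock and 2 higher with TGF-b1. Their summed levels were 128.5 to 132.4 CPM in HFD mock and 462.7 to 472.8 with TGF-b1. Most of these sums came from Ncam1, at 95.71 CPM in HFD mock and 423.1 with TGF-b1. Ngfr, a neurotrophin receptor of Schwann cells, was 8.14-fold higher in HFD mock, and Ncam1, given above, and Mbp, a myelin protein, were higher with TGF-b1, Mbp by 1.44-fold. Of 2 epithelial markers, the claudin gene Cldn3 was 5.98-fold higher in HFD mock and the keratin gene Krt14 3.37-fold higher with TGF-b1. Kit, the 1 mast cell marker tested, was 2.41-fold higher in HFD mock. Of 4 sex-linked genes, 1 was higher in HFD mock and 1 higher with TGF-b1, and neither call held under every alternative.

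**Figure D4:**
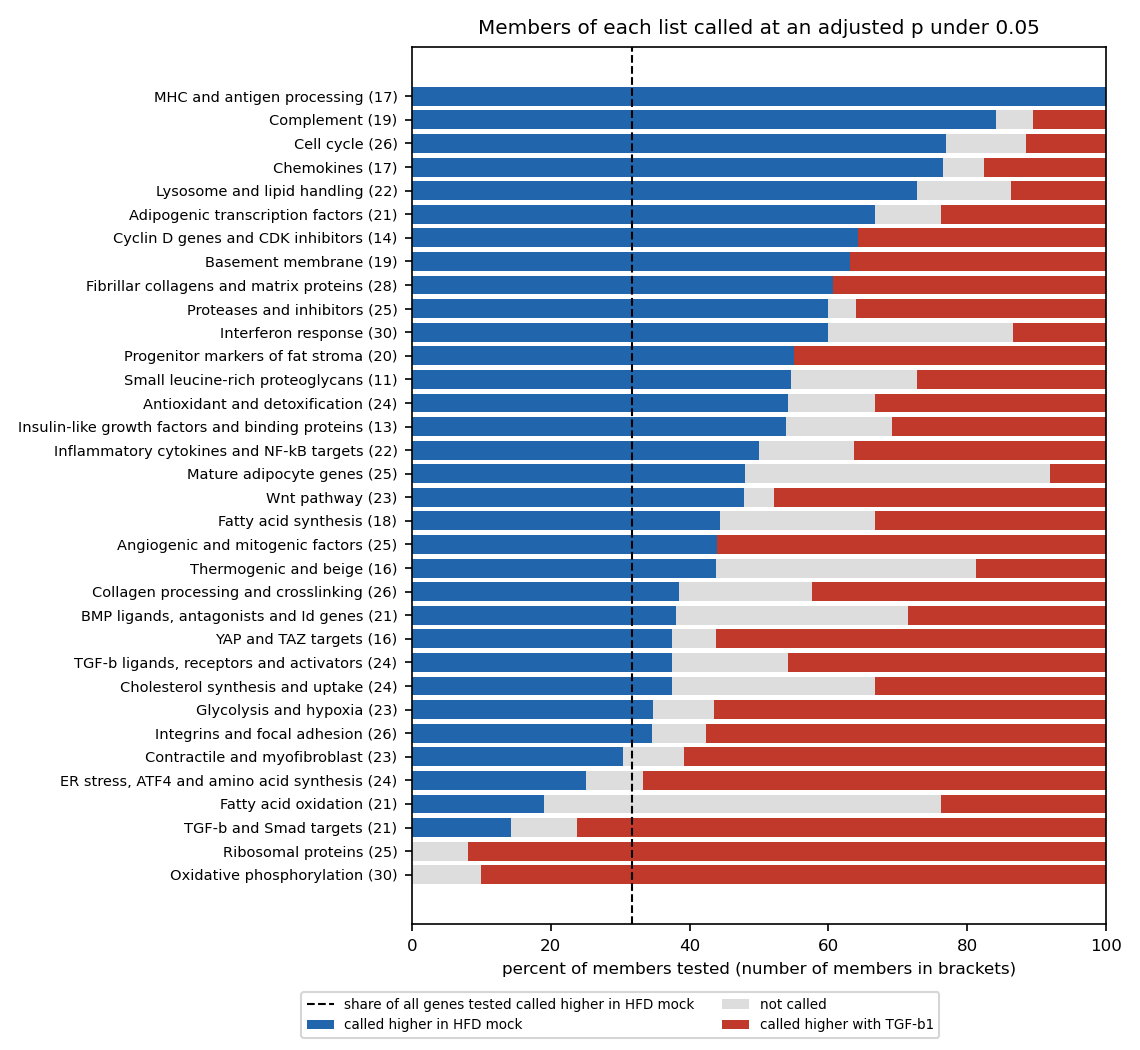
Share of the tested members of each gene list called higher in HFD mock, called higher with TGF-b1 or not called. Every tested MHC gene was called higher in HFD mock, and 27 of 30 oxidative phosphorylation genes were called higher with TGF-b1.

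Outside the lists, the largest differences on the TGF-b1 side included the cadherin gene Cdh6, the gap junction gene Gjb2, the matrix protease gene Tll1 and Cthrc1, a secreted protein of remodelled matrix. Cthrc1 was at 8.18, 6.7 and 8.25 CPM in HFD mock, at 110.2, 107.7 and 112.5 with TGF-b1 and at 7.734, 7.995 and 8.481 in CD mock. Its cytokine libraries stood above all others. Mfap4, a protein of elastic fibres, was 12.7-fold higher with TGF-b1, and Cdh6 51.6-fold, with 14 counts over the HFD mock libraries. On the HFD side Stc1, the hormone stanniocalcin 1, was at 16.43, 15.28 and 12.83 CPM in HFD mock and at 0.3411, 0.266 and 0.2697 with TGF-b1, where the libraries held 11 counts. Cd72, a surface protein of B cells and macrophages, was at 46.85 ± 0.955 CPM in HFD mock, 1.284 ± 0.494 with TGF-b1 and 2.364 ± 0.047 in CD mock. Macrophage markers moved with it, and their part in it was not tested. Fat3, an atypical cadherin, had 610 counts over the HFD mock libraries and 7 over the TGF-b1 libraries, and is given apart for that low number.

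Set beside their shared control, the lists stood in different relations to it. These medians share the CD mock libraries and are given side by side without a test. For TGF-b and Smad targets they were 0.347 log2 for HFD mock minus CD mock and 0.832 for TGF-b1 minus CD mock, both above 0. Macrophage markers gave 2.332 and -0.057 in the same order. MHC genes gave 0.169 and -0.775, on either side of 0. Mature adipocyte genes gave -0.886 and -2.039, and progenitor markers of fat stroma -0.958 and -1.120, all below 0. The adipocyte medians include members near the limit of detection, and 11 of the 25 were not called in the direct comparison. Adig, for example, had 1 count over the HFD mock libraries, 0 over TGF-b1 and 2 over CD mock, and Aqp7 had 7, 4 and 42. For oxidative phosphorylation they were -0.036 and 0.225.

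**Figure D5:**
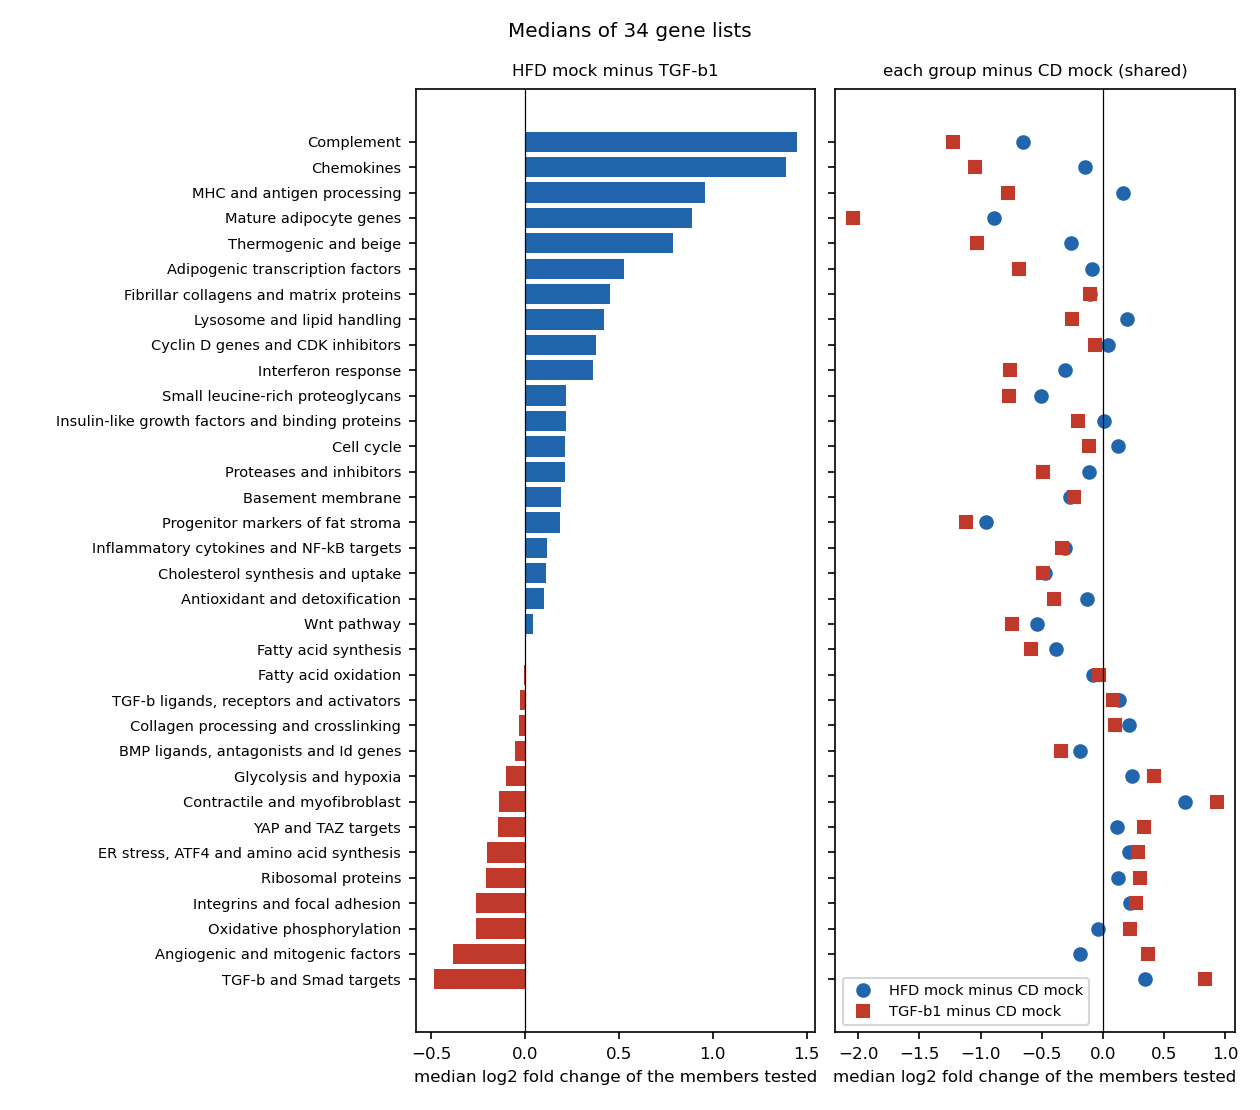
Median log2 fold change of the tested members of each gene list, for HFD mock minus TGF-b1 and for each group minus CD mock. Complement, at 1.450, lies far above 0 in the direct comparison, and contractile genes lie above CD mock in both groups, at 0.672 and 0.931.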

How the data were processed

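The 6 libraries of HFD mock and of TGF-b1 on the control diet are reported, with 3 of CD mock as background. Values in the deposited table are estimated counts (expected counts) per RefSeq transcript, not scaled to library size. The authors used fastp, STAR, featureCounts and build mm10, per the submitters' processing notes; the sources used here give neither versions nor strandedness. Transcripts were summed per gene symbol and rounded with Python 3.11.15 and pandas 2.3.3, giving 17001 symbols. Depth limited low genes, so genes named for the size of their difference required 10 CPM or, within lists, 5 CPM in the higher group. Adipoq, Cd163, Adig, Aqp7 and untested members such as Cd4 are named at lower levels.

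All 12 libraries of undifferentiated cells, 4 groups of 3, were fitted together in edgeR 4.0.16 (R 4.3.3): filterByExpr, which left 14078 genes, TMM scaling, and the quasi-likelihood test with Benjamini-Hochberg adjustment over all genes. Standard errors use a dispersion of at least 1e-04, and p-values of very abundant genes are not printed. The scripts were tested on simulated data. Of 846 listed genes in 34 pathway and 10 marker lists, 789 were tested; of the other 57, 24 have no row in the table used here and the rest did not pass the filter. The members and lists were chosen with earlier results of these data known. Named genes were check genes, the 10 largest differences in each direction with no overlap between libraries, and up to 2 called members of each list and direction; not all are printed, and some results are not reported here. Tgfbr2, Adig and Aqp7 are named as members that were not called. Figures were drawn with matplotlib 3.10.9. Alternatives were DESeq2 1.42.0, other scalings, filters and minimum folds, single transcripts, the 6 libraries alone, a replicate block and leaving out each library.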

Additional observations from a re-analysis of the deposited data

How the results depend on the processing

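The 5 counts of called genes over the whole table stayed within 1.5 times of their values under all alternatives except 2. Tests against a fold of 1.5 (edgeR's glmTreat) called 2182 genes, 1479 higher in HFD mock and 703 higher with TGF-b1. They ask for evidence that a fold exceeds 1.5, which smaller differences and less certain larger ones do not give. Acta2, Col1a1, Ccn2 and Smad7 were among the named genes not called. With at least 5 CPM in 3 libraries required, fewer genes were tested and 298 were called at least 2-fold higher with TGF-b1. Of 82 counts of called list members, those that moved by more than 1.5 times numbered 60 with glmTreat, 6 with library totals, 4 with the highest transcript, 2 with DESeq2 and 1 to 3 under each other alternative. Apart from glmTreat these were small counts: TGF-b and Smad targets higher in HFD mock went from 3 to 5, thermogenic genes higher in HFD mock from 7 to 3 with the 5 CPM filter, interferon genes higher with TGF-b1 from 4 to 2, mature adipocyte and complement genes higher with TGF-b1 from 2 to 1, and oxidative phosphorylation and sex-linked genes between 0 and 1. DESeq2 called 8264 genes, and the highest transcript of each symbol gave 6772. Leaving out each library in turn gave 8493 to 8757 called genes, 4166 to 4262 higher in HFD mock and 4327 to 4504 higher with TGF-b1. With scaling by library totals the all-gene median went from -0.002 to 0.062 log2, and the share of called genes that were higher in HFD mock from 49.1 to 58.1%. When only the highest transcript was counted, Gk turned from 0.75 to -0.72 log2 (edgeR adjusted p = 0.0356) and Oasl1 from -0.35 to 0.51, and the cause was not tested. Adipoq passed the threshold without the third TGF-b1 library, at 2.52 log2 (edgeR adjusted p = 0.0338). Libraries with the same replicate number deviated from their group means with correlations of only 0.004, 0.006 and 0.010, so the numbers were not taken to pair them. With the replicate number as a block 9048 genes were called in place of 9083. Depth limits genes with few counts, such as Adipoq, Mmp9 and Cxcl5.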
